A study of Mus musculus with 11 samples.

Results

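The circadian clock genes described here are 10 of the 46603 genes in a table of liver RNA read counts. They were taken by symbol as *Arntl*, *Npas2*, *Clock*, *Nfil3*, *Per1*, *Per2*, *Per3*, *Nr1d1*, *Dbp* and *Bhlhe41*. The list was drawn up with the INT-767 and vehicle values of these mice already known, so the levels of the 10 genes in the 2 groups are given as a description, without p-values, and where the fit across all genes called them, that count is a description too. Of the 10, 9 had enough reads to enter the fit across all genes, and *Npas2* did not. RNA came from the left lateral lobe of the liver of 11 male *ob/ob* mice of the strain B6.V-Lep ob/JRj, which carry a defective leptin gene in every cell and become obese. All 11 were started at 5 to 6 weeks of age on the AMLN diet, rich in trans fat, fructose and cholesterol, for 15 weeks, were selected by liver biopsy for steatosis and fibrosis, and stayed on the diet. By oral gavage once daily for 8 weeks, 4 mice then received INT-767 at 10 mg/kg and 7 received the vehicle, 0.5% carboxymethyl cellulose. INT-767 is a bile acid analog that activates the nuclear receptor FXR and the membrane receptor TGR5. There was no lean, chow-fed or untreated group, so every level is that of an obese mouse with steatohepatitis. The sources used here do not give the time of day at which each liver was taken, or whether it was the same in both groups.

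The clock of a mammalian cell is a loop of transcription. The proteins BMAL1 (encoded by *Arntl*) and CLOCK, or its close relative NPAS2, bind E-box sequences as a pair and switch on the *Per* and *Cry* genes, whose products come back to inhibit them. They also switch on *Nr1d1*, which encodes the repressor REV-ERBα, and REV-ERBα shuts off *Arntl*, *Npas2*, *Clock* and *Nfil3* through ROR elements, which the ROR receptors use to activate the same genes. The activator DBP and the repressor NFIL3 (E4BP4) compete for D-box sequences, and DEC2, the product of *Bhlhe41*, represses at E-boxes. In mouse liver *Arntl*, *Npas2* and *Clock* transcripts are highest around the end of the night, *Nr1d1* peaks during the day, *Dbp* in the afternoon and the *Per* genes around dusk, with *Per2* behind *Per1* and *Per3*. *Arntl* and *Nr1d1* therefore run in opposite phase.

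The sequences that join these genes into a loop were looked up in RefSeq promoter windows of GRCm38.p6, which reach from 250 bases before to 50 bases after each gene start. Of the 10 genes, 9 had a window, and *Per2* did not. The letters searched on both strands were CACGTG for the E-box, CACGTT for the weaker E-prime-box, TTANGTAA for the D-box with N for any base, and TAGGTCA for the core of the ROR element, and the E-box and the E-prime-box differ in a single letter. The E-box was held by 7.15% of all 32851 windows, the E-prime-box by 4.68%, the D-box by 2.32% and the ROR element by 2.61%. The sites below are those in the promoters of members, with the E-box of *Cry1*, a target of the same loop. The *Cry1* window also held an E-prime-box, 79 bases before the gene start, which is not printed. Capitals mark the motif or its reverse complement. The sites are printed on the strand of the gene. A match is a description of the letters and not of binding, and the windows of *Npas2*, *Clock* and *Dbp* held none of the 4 motifs.
Arntl, ROR element: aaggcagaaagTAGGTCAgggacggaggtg
Nfil3, ROR element: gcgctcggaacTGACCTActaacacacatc
Nr1d1, E-prime-box: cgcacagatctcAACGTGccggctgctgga
Per1, E-box: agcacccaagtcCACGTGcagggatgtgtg
Bhlhe41, E-box: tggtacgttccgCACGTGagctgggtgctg
Cry1, E-box: ggtgccggtggtCACGTGgggtgcatgccg
Per3, first D-box: cgacccgcgcgTTATGTAAggtactcgggg
Per3, second D-box: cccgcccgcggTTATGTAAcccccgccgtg

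The *Arntl* stretch lies at chr7:113207530-113207559, in an untranslated exon just after the gene start, and that of *Nfil3* at chr13:52981033-52981062, also in an untranslated exon. The *Nr1d1* stretch at chr11:98775388-98775417, that of *Bhlhe41* at chr6:145865556-145865585 and that of *Cry1* at chr10:85185097-85185126 have their motif upstream of the annotated gene. The *Per1* stretch at chr11:69098771-69098800 lies in an intron of the annotated gene. The *Per3* D-boxes lie upstream of the gene at chr4:151044852-151044881 and chr4:151044805-151044834. Of the genes that REV-ERBα represses, *Arntl* and *Nfil3* held a ROR element, and *Npas2* and *Clock* did not. Among the members the E-box was found in *Per1* and *Bhlhe41* only. *Nr1d1* held the E-prime-box, and *Dbp* and *Per3* held neither of these.

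Each library held between 7381211 and 16022459 counted reads, and levels are given as CPM, the reads of a gene scaled to a common library total, after TMM scaling (a correction for library composition). No 2 libraries were copies of one another. The libraries did not all read short and long transcripts alike. Across 13835 genes, which are not independent of one another, the deviation of a library from the mean of the 11 mice was negatively rank-correlated with transcript length in 4 libraries, at -0.18 in vehicle mouse 1, -0.23 in vehicle mouse 7, -0.29 in INT-767 mouse 2 and -0.31 in INT-767 mouse 4. In the other 7 libraries it was positive, between 0.09 and 0.30. The sign splits both groups, with 2 of 7 vehicle and 2 of 4 INT-767 libraries on the negative side, and it is used below as a library class. It was set after the data were seen, from all genes and not from the clock genes. The rank correlation with GC content did not split the groups in this way: it was negative in all 4 INT-767 libraries, between -0.26 and -0.059, and in the vehicle group at -0.42 in mouse 1 and -0.12 in mouse 7, the other 5 lying between 0.018 and 0.44. The trend on GC content thus went in part with treatment. The share of all tested genes for which the 4 negative libraries lay below the positive ones of their own group, in both groups and without overlap, was 20.2%, and above them 20.0%, so that the class touches much of the transcriptome. What made the libraries differ was not tested.

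*Arntl*, the gene of the activator BMAL1, stood higher in the INT-767–treated mice. The INT-767 mice 1 to 4 had 5.15, 9.40, 4.08 and 1.72 CPM, and the vehicle mice lay between 0.5679 and 1.82 CPM with a median of 0.749. The groups overlapped by a single INT-767 mouse, number 4, which lay just under the highest vehicle mouse, number 5. These are small numbers of reads, between 6 and 25 per vehicle mouse and between 23 and 81 per INT-767 mouse. The mean was 5.09 ± 3.21 CPM (SD, n = 4) against 1.00 ± 0.448 (SD, n = 7), a 5.07-fold difference, and the fitted log2 fold change was 2.30 (SE 0.42). Without 1 mouse at a time the log2 fold change stayed between 1.84 and 2.59.

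*Npas2*, which can stand in for *Clock* as the partner of BMAL1, was at the edge of detection. No mouse had more than 6 reads, and vehicle mouse 4 and INT-767 mouse 3 had none, which at 3 counts of their totals allows levels of up to 0.374 and 0.422 CPM. The vehicle mice together had 21 reads and the INT-767 mice 7, and no fold is given.

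*Clock*, the usual partner of BMAL1, was spread widely in both groups. The INT-767 mice 1 to 4 had 44.0, 112, 49.6 and 118 CPM, and the vehicle mice lay between 23.9 and 96.9 with a median of 34.4. The groups overlapped, and in each group the 2 mice with negative libraries were the highest. The log2 fold change was 0.82 (SE 0.38) with a mean of 80.7 ± 39.3 CPM (SD, n = 4) against 45.6 ± 24.8 (SD, n = 7). Per length of merged exons *Clock* was far more abundant than *Arntl*, at 3.32 against 0.133 CPM per kilobase in vehicle and 5.88 against 0.676 in INT-767–treated liver.

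*Nr1d1*, whose product REV-ERBα represses *Arntl*, was the member whose groups did not overlap. The INT-767 mice 1 to 4 had 13.3, 3.18, 15.9 and 3.07 CPM, and the vehicle mice lay between 18.8 and 55.5 with a median of 51.4. Every INT-767 mouse was below every vehicle mouse. Within each group the levels fell into separate steps: 5 vehicle mice lay between 48.6 and 55.5 CPM and the 2 with negative libraries at 18.8 and 20.8, while the 2 INT-767 mice with positive libraries had 13.3 and 15.9 and the 2 with negative libraries 3.07 and 3.18. The mean was 8.88 ± 6.72 CPM (SD, n = 4) against 43.1 ± 16.1 (SD, n = 7), 4.85-fold lower with INT-767, and the log2 fold change was -2.28 (SE 0.51), between -2.68 and -1.99 without 1 mouse at a time. On the opposite strand, exons of *Thra*, a thyroid hormone receptor gene, cover 8.55% of the exon bases of *Nr1d1*, and reads from the 2 genes cannot be told apart there because the strand setting of the counting is not given. *Thra* had 14.1 ± 2.30 CPM with INT-767 (SD, n = 4) and 19.9 ± 3.33 with vehicle (SD, n = 7). Its log2 fold change of -0.50 (SE 0.17) did not pass the test (edgeR adjusted p = 0.0731).

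*Dbp*, the D-box activator, followed *Nr1d1*. The INT-767 mice 1 to 4 had 40.2, 11.2, 47.0 and 16.3 CPM, and the vehicle mice lay between 46.3 and 96.1 with a median of 80.2. A single pair overlapped, INT-767 mouse 3 at 47.0 and vehicle mouse 1 at 46.3 CPM. Again the negative libraries were the lowest of their group, at 46.3 and 66.1 CPM in vehicle and 11.2 and 16.3 in INT-767–treated mice. The mean was 28.7 ± 17.6 CPM (SD, n = 4) against 77.1 ± 16.4 (SD, n = 7), a log2 fold change of -1.43 (SE 0.36). *Sphk2*, a sphingosine kinase gene whose exons cover 18.0% of those of *Dbp* on the opposite strand, had a log2 fold change of 0.40 (SE 0.18, edgeR adjusted p = 0.139).

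*Bhlhe41*, which encodes the E-box repressor DEC2, was a lowly expressed member with lower values in the INT-767 mice. They had 1.59, 0.691, 3.66 and 1.05 CPM, from 25, 5, 26 and 14 reads, and the vehicle mice lay between 3.55 and 11.1 with a median of 4.58. INT-767 mouse 3 lay within the vehicle range and the other 3 below it, and vehicle mouse 3 stood far above the rest of its group. The log2 fold change was -1.68 (SE 0.44). An unnamed transcript, *Gm43909*, covers 19.0% of the *Bhlhe41* exons on the other strand and had 12 reads in all 7 vehicle mice and 1 in the 4 INT-767 mice.

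The 3 *Per* genes encode inhibitors that close the loop, and the groups overlapped for each of them. *Per1* had 58.8, 17.7, 48.2 and 21.1 CPM in the INT-767 mice, and between 21.3 and 167 with a median of 71.5 in the vehicle mice. INT-767 mice 1 and 3 lay within the vehicle range and mice 2 and 4 just below its lowest mouse, and the log2 fold change was -1.02 (SE 0.52). *Per2* had 82.2, 45.0, 53.8 and 35.0 CPM in the INT-767 mice, and between 18.3 and 80.0 with a median of 66.5 in the vehicle mice. The highest and the lowest *Per2* levels were thus those of INT-767 mouse 1 and vehicle mouse 1, and the log2 fold change was -0.051 (SE 0.36). *Per3* had 71.9, 32.8, 83.5 and 42.0 CPM in the INT-767 mice and between 43.7 and 103 with a median of 81.2 in the vehicle mice, with a log2 fold change of -0.36 (SE 0.30). Once the trends on GC content and length were removed, the log2 fold change of *Per2* turned to 0.36, and those of *Per3* and *Per1* were -0.0058 and -0.66.

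*Nfil3*, the D-box repressor that normally runs opposite to *Dbp*, showed no difference in the means, 14.9 ± 5.01 CPM with INT-767 (SD, n = 4) against 14.98 ± 13.5 with vehicle (SD, n = 7). The INT-767 mice had 20.2, 17.7, 12.8 and 8.99 CPM and the vehicle mice lay between 7.24 and 45.2 with a median of 9.57. The vehicle mean was pulled up by mouse 3 at 45.2, the next being 13.1. The log2 fold change was -0.0019 (SE 0.48) with all 11 mice and between -0.19 and 0.58 without 1 at a time.

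**Figure D1:**
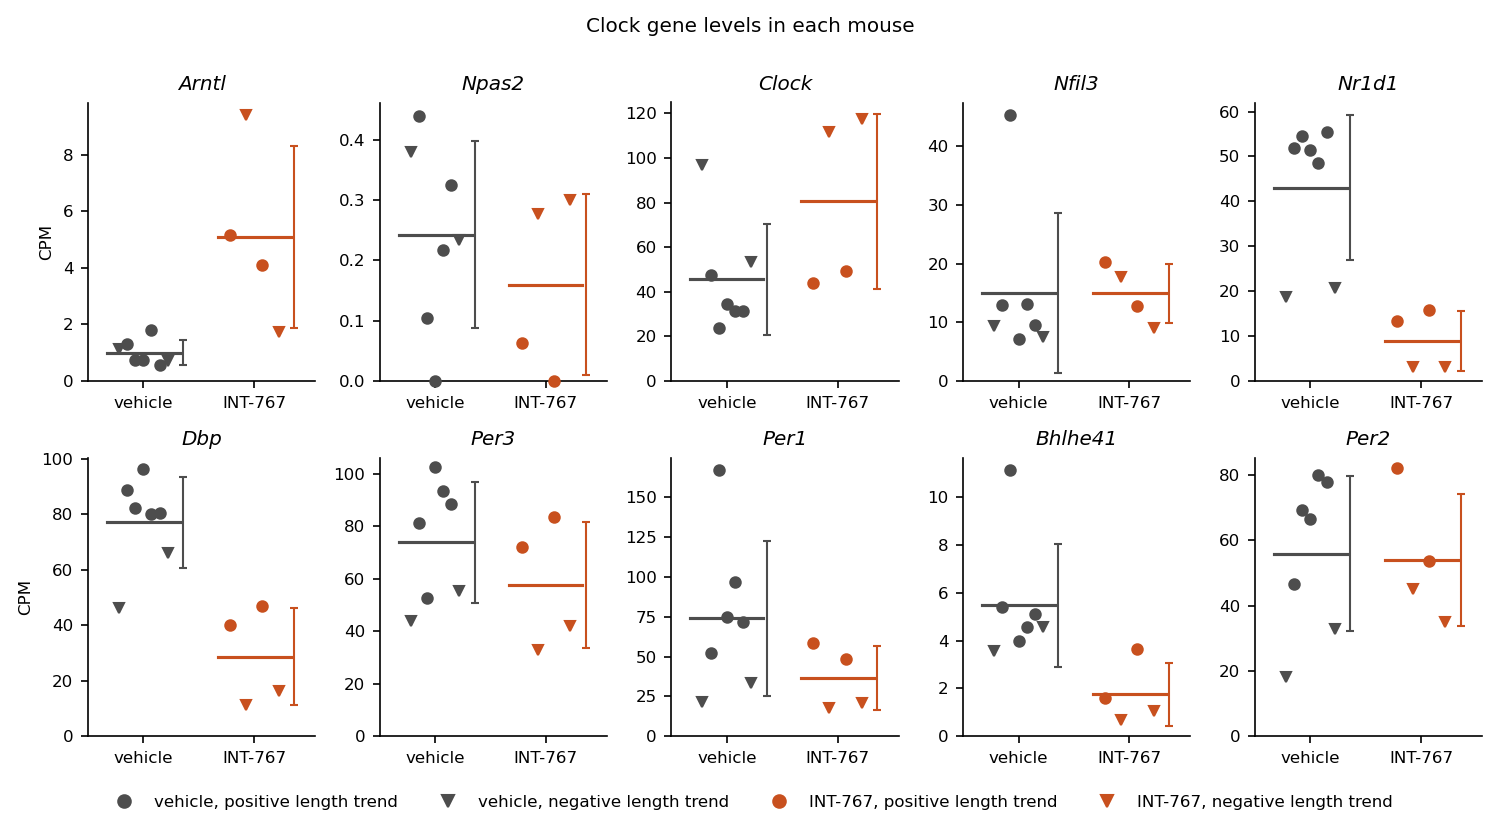
Level of each of the 10 clock genes (vertical axis, CPM, starting at 0) in the 7 vehicle and 4 INT-767 mice, with a horizontal line at the mean and a bar of 1 SD to each side; triangles are the 4 libraries with a negative length trend. *Arntl* was between 1.72 and 9.40 CPM with INT-767 against 0.5679 to 1.82 with vehicle, *Nr1d1* between 3.07 and 15.9 against 18.8 to 55.5, and for *Nr1d1* and *Dbp* the triangles are the lowest points of their group.

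Per kilobase of exon, *Dbp* was the most abundant member in vehicle-treated liver at 25.8 CPM per kilobase, followed by *Nr1d1* at 14, *Per1* at 13.1, *Per2* at 9.56, *Per3* at 7.69 and *Nfil3* at 7.395, then *Clock* at 3.32, *Bhlhe41* at 0.815, *Arntl* at 0.133 and *Npas2* at 0.0507. The neighbours *Nr1d1* and *Per1* differed by less than the spread of either. With INT-767 the order was *Dbp* at 9.58, *Per2* at 9.22, *Nfil3* at 7.37, *Per1* at 6.47, *Per3* at 5.99 and *Clock* at 5.88, so that these 6 lay close together, with *Nr1d1* at 2.89, *Arntl* at 0.676, *Bhlhe41* at 0.260 and *Npas2* at 0.0334. *Nr1d1* moved from the second place to the seventh.

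Read in the order in which the transcripts normally peak, the log2 fold changes were 2.30 for *Arntl* and 0.82 for *Clock* at the end of the night, -2.28 for *Nr1d1* by day, -1.43 for *Dbp* in the afternoon, and -0.36 for *Per3*, -1.02 for *Per1* and -0.051 for *Per2* from dusk on. *Bhlhe41* and *Nfil3*, which this order leaves out, were at -1.68 and -0.0019. The differences were thus largest for the opposed pair *Arntl* and *Nr1d1* and smallest for *Per2*, *Per3* and *Nfil3*. In the fit across all genes, 1 of the 9 members tested was called higher with INT-767 (*Arntl*) and 3 lower (*Nr1d1*, *Dbp* and *Bhlhe41*) at an adjusted p under 0.05, where 5.04% of all 13880 genes were called higher, 4.68% lower and 9.72% in either direction. Groups without overlap were found for 1 of the 9 members, *Nr1d1*, and for 3.65% of all genes with INT-767 below and 7.51% in either direction. Without 1 mouse at a time the call of *Arntl* was kept in 11 of 11 fits, that of *Nr1d1* in 10, of *Dbp* in 5 and of *Bhlhe41* in 3. All 3 calls of lower genes were lost without INT-767 mouse 2, those of *Dbp* and *Bhlhe41* also without INT-767 mouse 4 or vehicle mouse 3, 4, 5 or 6, and that of *Bhlhe41* without vehicle mouse 2 or INT-767 mouse 1 and without the 4 negative libraries. These counts come from the contrast by which the members were picked and say nothing further about them. The median log2 fold change was -0.36 over the 9 members and -0.011 over all genes. Scaling by library size alone moved that median of all genes to -0.22, and no called member changed sign.

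**Figure D2:**
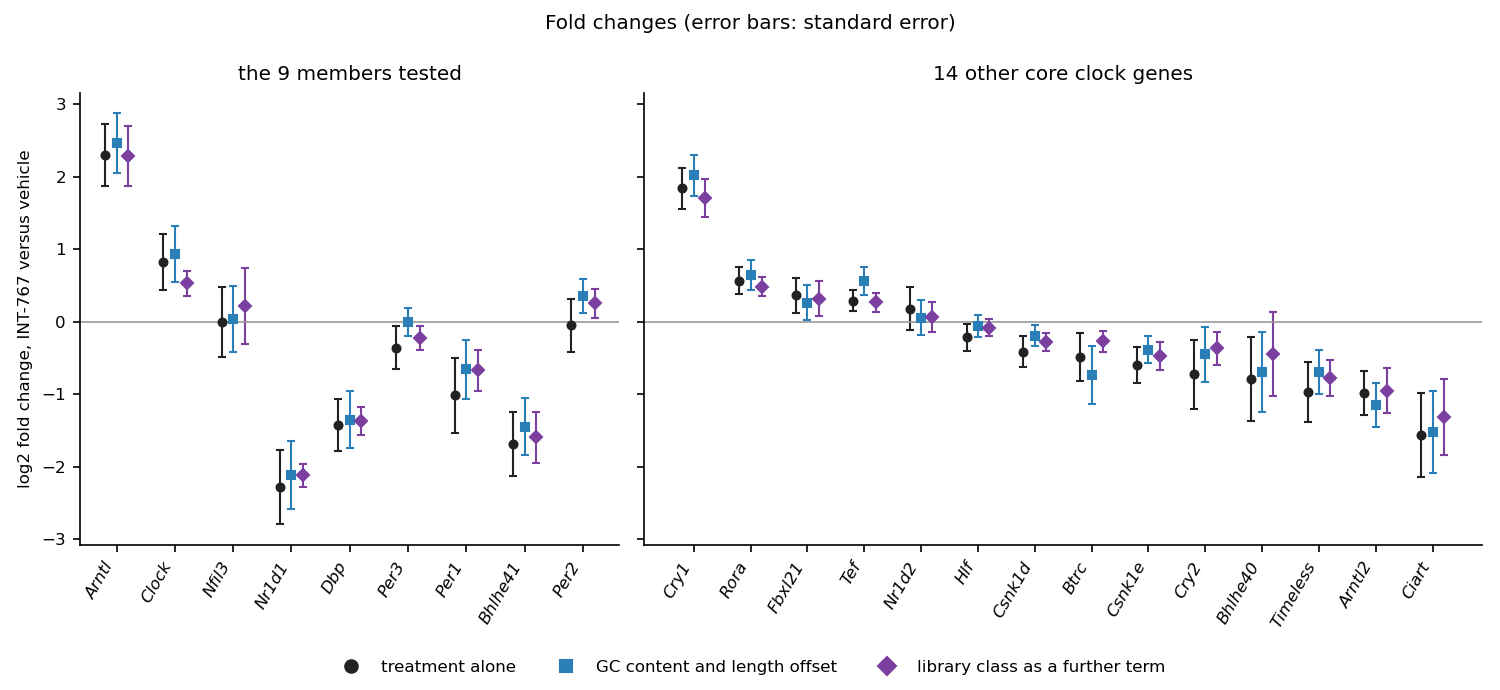
Log2 fold change between INT-767 and vehicle (vertical axis) with its standard error, from the fit with treatment alone (circles), with an offset for GC content and transcript length (squares) and with the library class as a further term (diamonds); the left panel orders the 9 members tested by their usual peak, the right panel orders 14 other core clock genes by size. *Arntl* was at 2.30, 2.46 and 2.29 and *Nr1d1* at -2.28, -2.12 and -2.12 in the 3 fits, while the points of *Nfil3*, *Per3* and *Per2* lie around 0.

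Ratios of reads of 2 genes in the same library do not depend on scaling, though they do keep a length or GC trend. For every 100 reads of *Nr1d1*, the vehicle mice had between 1.02 and 6.08 reads of *Arntl* with a median of 2.54, and the INT-767 mice between 25.7 and 296 with a median of 47.3. The groups did not overlap in this ratio. *Nr1d1* itself stood at 31.4 to 69.2 reads per 100 reads of *Dbp* in vehicle mice and at 18.8 to 33.8 in INT-767 mice, with an overlap. For every 100 reads of *Per2* there were between 91.9 and 241 reads of *Per1* in the vehicle mice and between 39.3 and 89.5 in the INT-767 mice, without overlap, whereas *Per1* and *Per2* each overlapped when taken alone. *Arntl* reads per 100 of *Per2* ranged from 0.730 to 6.25 in vehicle and from 4.93 to 20.9 in INT-767 mice and overlapped. These ratios were chosen with the values known and are a description.

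**Figure D3:**
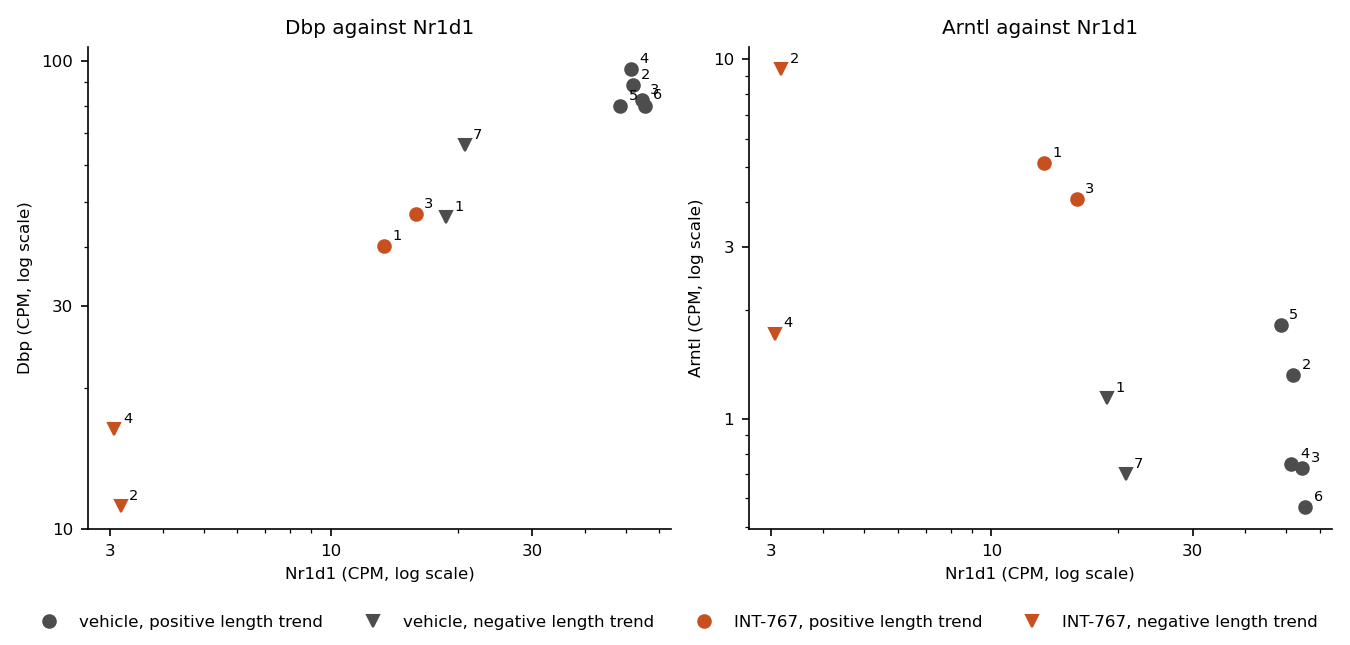
*Dbp* (left) and *Arntl* (right) against *Nr1d1* in each mouse, in CPM on log axes, with the mouse number beside each point and triangles for the 4 libraries with a negative length trend. On the left the mice form 1 ascending line. It runs from INT-767 mice 2 and 4, at 3.18 and 3.07 CPM of *Nr1d1*, to 5 vehicle mice at 48.6 CPM and above. On the right *Nr1d1* sets the groups apart, while in *Arntl* INT-767 mouse 4 lies within the vehicle range. Within a group *Arntl* does not follow *Nr1d1*.

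Mice of the same group differed widely among themselves. *Arntl* varied 3.20-fold between the lowest and the highest vehicle mouse and 5.45-fold among the INT-767 mice, *Nr1d1* 2.96-fold and 5.18-fold, *Dbp* 2.08-fold and 4.20-fold, and *Per1* 7.85-fold and 3.32-fold. The SD of log2 CPM about the group means was 0.91 for *Nr1d1*, larger than for 95.5% of the genes tested, and 0.94 for *Per1*, larger than for 96.1%. It was 0.70 for *Arntl*, at 86.1%, though with so few reads counting error adds to it. It was lowest among the members for *Per3*, 0.54, at 71.3%. The other members tested lay between 82.2% and 91.3%.

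Much of this spread followed the library class. In both groups the negative libraries lay wholly below the positive ones for 4 of the 9 members, *Per1*, *Per2*, *Nr1d1* and *Dbp*, and wholly above them for 1, *Clock*. The shares of all genes with such an order are the 20.2% and 20.0% given above. *Arntl* and *Nfil3* did not sort by class in either group, and *Per3* and *Bhlhe41* did so only among the INT-767 mice.

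Because both groups hold libraries of both classes, the groups could be set side by side within each. Among the 4 negative libraries, 2 against 2, mean *Nr1d1* was 6.33-fold lower with INT-767, and among the 7 positive ones, 2 against 5, it was 3.58-fold lower. *Dbp* was 4.08-fold and 1.96-fold lower, and *Bhlhe41* 4.66-fold and 2.30-fold lower. *Arntl* was 6.04-fold higher in the negative and 4.45-fold higher in the positive libraries, and in neither class did the groups overlap for *Arntl*, *Nr1d1*, *Dbp* or *Bhlhe41*. Of all genes, 20.9% kept the groups apart in the same direction in both classes in this way, 9.89% with INT-767 below, and of the 9 members 1 did so with INT-767 above and 3 with INT-767 below. For *Per2* the ratio of INT-767 to vehicle was 1.56 and 0.998, and for *Nfil3* 1.58 and 0.938. With the class as a further term in the fit the log2 fold changes were 2.29 (SE 0.41) for *Arntl*, -2.12 (SE 0.15) for *Nr1d1*, -1.37 (SE 0.19) for *Dbp*, -1.60 (SE 0.35) for *Bhlhe41* and 0.53 (SE 0.18) for *Clock*, where the standard error of *Nr1d1* without the term was 0.51. *Clock*, at 0.82 without the term, was called higher with it, as were 14.7% of all genes. Without the 4 negative libraries it was at 0.47 (SE 0.21) and was not called.

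**Figure D4:**
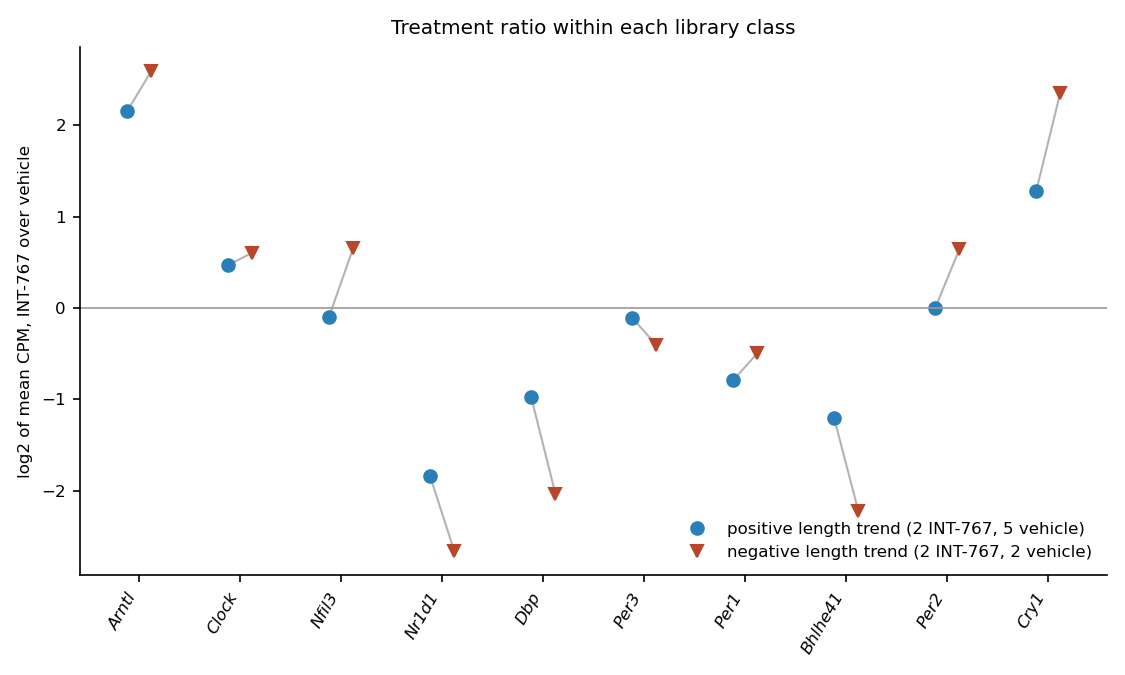
Log2 of the ratio of mean CPM, INT-767 over vehicle (vertical axis), for the 9 members tested and *Cry1*, within the libraries with a positive length trend (circles, 2 against 5 mice) and a negative one (triangles, 2 against 2). *Arntl*, *Clock* and *Cry1* lie above 0 and *Nr1d1*, *Dbp*, *Per1*, *Per3* and *Bhlhe41* below 0 in both, while *Nfil3* and *Per2* lie on both sides.

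The rest of the core clock was examined through 15 other genes, of which *Rorb* had too few reads to be tested. This list, like those further below, was drawn up with earlier results of these data known. Its genes share the mice and the contrast with the members, so their calls are not an independent test of the members. Of the 14 tested, 1 was higher with INT-767 and 0 lower at an adjusted p under 0.05, where 5.04% and 4.68% of all genes were called. At an unadjusted p under 0.05 there were 6, where 32.9% of all genes passed. The median log2 fold change of the 14 was -0.45. *Cry1*, which encodes the strongest inhibitor of BMAL1 and CLOCK and peaks late in the night, rose. The INT-767 mice had 25.0, 48.9, 21.7 and 39.6 CPM and the vehicle mice between 4.18 and 13.1 with a median of 9.23. All 4 INT-767 mice were above all 7 vehicle mice, as for 3.87% of all genes, and the log2 fold change was 1.84 (SE 0.28, edgeR adjusted p = 0.00403). The call held without any 1 mouse, with adjusted p of at most 0.0215, with the class term (adjusted p = 0.000682) and without the 4 negative libraries (adjusted p = 0.00140).

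The remaining 13 did not pass the test. *Cry2*, the sister of *Cry1*, had a log2 fold change of -0.72 (SE 0.47, adjusted p = 0.287). *Nr1d2*, which encodes REV-ERBβ, the relative of *Nr1d1*, had 154 ± 66.8 CPM with INT-767 (SD, n = 4) against 136 ± 49.6 (SD, n = 7), a log2 fold change of 0.18 (SE 0.30). Per kilobase it stood at 25.2 CPM in vehicle liver and 28.4 with INT-767, where *Nr1d1* stood at 14 and 2.89. The PAR bZIP factors that share D-boxes with DBP, *Tef* and *Hlf*, had log2 fold changes of 0.29 (SE 0.14) and -0.22 (SE 0.19), against -1.43 for *Dbp*. *Ciart*, an E-box target and repressor whose promoter window held 3 copies of CACGTG, was at -1.56 (SE 0.58, adjusted p = 0.0942). *Arntl2*, the relative of *Arntl*, was at -0.99 (SE 0.30, adjusted p = 0.0573) with every INT-767 mouse below every vehicle mouse, and *Rora* at 0.56 (SE 0.19, adjusted p = 0.0699). *Bhlhe40*, which encodes DEC1, was at -0.80 (SE 0.58) with all mice and at -0.051 without vehicle mouse 3. The genes of the kinases and ubiquitin ligase parts that set the life of PER and CRY proteins gave -0.42 for *Csnk1d*, -0.60 for *Csnk1e*, 0.36 for *Fbxl21* and -0.49 for *Btrc*, and *Timeless* gave -0.97. With the class term 2 of the 14 were called higher and 2 lower, adding *Rora* above and *Arntl2* and *Timeless* below, where 14.7% and 14.4% of all genes were called.

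**Figure D5:**
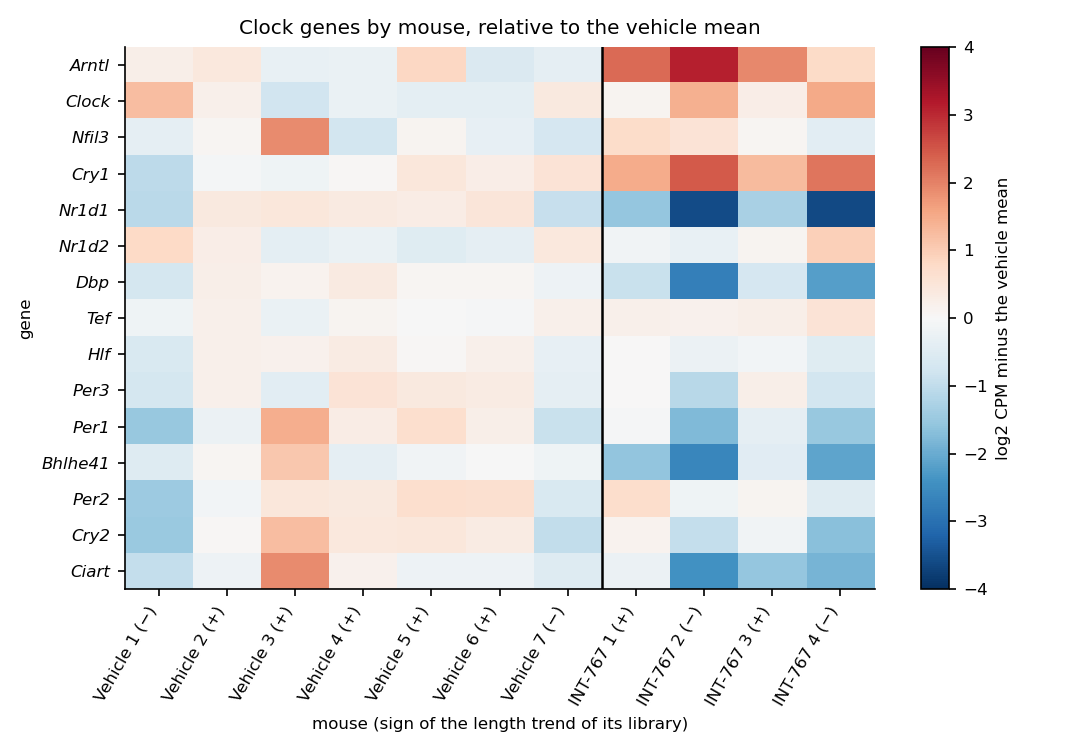
Log2 CPM minus the mean of the 7 vehicle mice (colour, from -4 in blue to 4 in red) for 15 clock genes in each of the 11 mice, with the sign of the length trend of each library in its label and a black line between the groups. *Arntl* and *Cry1* are red in all 4 INT-767 columns, *Nr1d1* and *Dbp* are blue in all 4 and darkest in mice 2 and 4, and vehicle mouse 3 is reddest for *Nfil3*, *Per1*, *Bhlhe41*, *Cry2* and *Ciart*.

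Whether mice of the same group that differed in one clock gene differed in others was tested in fits with treatment and the level of that gene as terms, which do not use the contrast between the groups. With *Arntl* as the term, edgeR called 0 of 13879 genes, with 291 at an unadjusted p under 0.05, and limma-voom called 0, with 341. Simulated counts held *Arntl* at its mean over all mice, with an SD of 1 log2 unit within groups. There the fit found 26% of genes simulated to change by 1 log2 unit per log2 unit of *Arntl*. In the data that SD was smaller, at 0.70, and the vehicle mice lay below that mean. Slopes of that size would thus mostly have been missed. With *Nr1d1* as the term, 5 of the other members had a positive slope past the test and 1 a negative one. The slopes were 0.63 (SE 0.087) for *Dbp*, 0.89 (SE 0.19) for *Per1*, 0.58 (SE 0.15) for *Per2*, 0.50 (SE 0.096) for *Per3*, 0.56 (SE 0.19) for *Bhlhe41* and -0.68 (SE 0.10) for *Clock*, in log2 units per log2 unit of *Nr1d1*. *Arntl*, the gene that REV-ERBα represses, had a slope of -0.037 (SE 0.24). These calls were not particular to the clock: 24.4% of all genes had a called positive slope on *Nr1d1* and 25.3% a negative one, and 49.8% either. With the library class as a further term edgeR called 0 of 13879 genes, with 478 at an unadjusted p under 0.05, and none of the members. The slopes of *Per1* and *Per2* then turned to -0.18 (SE 0.70) and -0.72 (SE 0.47), and those of *Dbp* and *Bhlhe41* were 1.24 (SE 0.33) and 1.72 (SE 0.76). With the offset for GC content and length the slopes of *Per2*, *Per3* and *Bhlhe41* fell short of the test at 0.28, 0.21 and 0.30.

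The genes whose levels went most nearly with *Arntl* among mice of the same group were taken from 10261 genes with a mean of at least 5 CPM, by Pearson correlation of deviations from the group means over 11 mice. The 5 most alike were *Cdadc1* at 0.83, *3830406C13Rik* at 0.83, *Impa1* at 0.82, *R3hcc1l* at 0.82 and *Oxnad1* at 0.82, and the 5 most unlike were *Arl2* at -0.85, *S100a11* at -0.85, *Tmem119* at -0.84, *Cap1* at -0.82 and *Gpd2* at -0.81. None is a gene of the clock lists. Among the clock genes the closest to *Arntl* in either direction was *Nr1d2* at -0.44. These are the extremes of many correlations over few mice and are a description of these libraries.

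Outputs of the clock in liver were followed through 15 rhythmic genes, of which 3 rose with INT-767, 0 fell and 12 did not pass the test, with a median log2 fold change of 0.24. The shares of all genes, 5.04% higher and 4.68% lower, are the background of this count and of those of the lists below. *Nampt*, which makes a precursor of NAD under control of E-boxes, had 249 ± 49.1 CPM with INT-767 (SD, n = 4) against 121 ± 18.4 (SD, n = 7), a log2 fold change of 1.04 (SE 0.16, edgeR adjusted p = 0.00403), with all 4 mice above all 7. *Elovl3*, a fatty acid elongase gene with a strong daily rhythm in male mouse liver, was higher by 1.76 (SE 0.41, adjusted p = 0.0224) and *Lonrf3* by 1.46 (SE 0.31, adjusted p = 0.0147). Both calls were lost without INT-767 mouse 2 (adjusted p = 0.116 and 0.0761), that of *Elovl3* without vehicle mouse 6 (adjusted p = 0.0513), and that of *Lonrf3* without the 4 negative libraries (adjusted p = 0.0603). *Alas1*, the most abundant gene of the list and the first enzyme of heme synthesis, had a log2 fold change of -0.21 (SE 0.20), *Wee1*, a kinase gene driven by E-boxes, -0.18 (SE 0.25) and *Noct*, which encodes nocturnin, 0.28 (SE 0.41). *Por* and *Upp2*, both rhythmic in liver, had -0.13 (SE 0.28) and 0.14 (SE 0.29).

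Cues that set the liver clock from outside were read through 3 further lists. Of 9 temperature and heat shock genes tested, 1 rose, *Hspa8*, by 0.68 (SE 0.19, edgeR adjusted p = 0.0401), and 0 fell. The *Hspa8* call was kept in 4 of 11 fits without 1 mouse and lost without vehicle mouse 2, 3, 4, 5 or 6 or INT-767 mouse 2 or 4, with adjusted p of up to 0.171, and also without the 4 negative libraries (adjusted p = 0.0519) and with only library size scaled (adjusted p = 0.107). *Cirbp*, a cold-induced gene that follows body temperature, had a log2 fold change of -0.25 (SE 0.19). *Rbm3*, of the same list, went the other way at 0.41 (SE 0.28), and neither passed the test. Of 11 genes that respond to fasting and feeding, 2 rose and 0 fell: *Ppargc1a*, a coactivator that fasting raises, by 0.93 (SE 0.15, adjusted p = 0.00496), and *G6pc*, the last enzyme of glucose release, by 1.21 (SE 0.30, adjusted p = 0.0298). *G6pc* kept its call in 5 of 11 such fits, losing it without vehicle mouse 2, 4, 5 or 6 or INT-767 mouse 2 or 4 (adjusted p of up to 0.130), and without the 4 negative libraries its log2 fold change was 0.49 (adjusted p = 0.340). With only library size scaled its adjusted p was 0.0538. *Pck1*, the most abundant gene of that list, was at -0.031 (SE 0.42). Of 10 glucocorticoid-responsive genes 2 rose and 2 fell. *Tsc22d3* rose by 0.78 (SE 0.19, adjusted p = 0.0283) and the receptor gene *Nr3c1* by 0.60 (SE 0.16, adjusted p = 0.0329), and the metallothionein genes *Mt1* and *Mt2* were lower by log2 fold changes of -2.49 (SE 0.58, adjusted p = 0.0236) and -3.40 (SE 0.78, adjusted p = 0.0219). *Nr3c1* kept its call in 5 of 11 fits without 1 mouse, losing it without vehicle mouse 3, 4, 5 or 6 or INT-767 mouse 2 or 4, and *Tsc22d3* in 7, losing it without vehicle mouse 4 or 6 or INT-767 mouse 1 or 2, with adjusted p of up to 0.130 and 0.127. With only library size scaled both lost their calls (adjusted p = 0.0779 and 0.0912). The calls of *Mt1* and *Mt2* were lost without INT-767 mouse 2 (adjusted p = 0.0925 and 0.0878) and without the 4 negative libraries (adjusted p = 0.180 and 0.192). Their log2 fold changes were -2.26 and -3.16 without that mouse and -2.39 and -3.34 without those libraries. An antisense gene covers 73.5% of the exon bases of *Mt2*. *Fkbp5*, a standard glucocorticoid target, was at -0.075 (SE 0.19), and *Tat*, the most abundant of the list, at 1.03 (SE 0.32, adjusted p = 0.0599).

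The tissue was liver by its markers, with *Alb* alone at 63913 ± 19494 CPM with INT-767 (SD, n = 4) and 43057 ± 4297 with vehicle (SD, n = 7), and none of the 6 hepatocyte markers passed the test. Some markers of other cells were lower with INT-767. Of 6 macrophage markers 2 passed the test, *Cd68* by a log2 fold change of -1.16 (SE 0.22, edgeR adjusted p = 0.00943) and *Csf1r* by -1.14 (SE 0.19, adjusted p = 0.00498), 15.1% of whose exon bases lie opposite another gene, while *Clec4f*, a Kupffer cell marker, was at 0.53 (SE 0.43). The 6 summed to between 395 and 668 CPM with a median of 502 in vehicle mice and to between 271 and 675 with a median of 294 in INT-767 mice, with *Lyz2* the most abundant. Of 6 stellate cell markers 2 passed the test, *Col1a1*, the most abundant, by -2.96 (SE 0.74, adjusted p = 0.0297) and *Pdgfrb* by -1.31 (SE 0.33, adjusted p = 0.0302), while *Lrat*, a marker of quiescent stellate cells, was at 0.051 (SE 0.18). The 6 summed to between 162 and 636 CPM in vehicle and between 92.6 and 181 in INT-767 mice. *Col1a1* and *Pdgfrb* each kept the call in 5 of 11 fits without 1 mouse. Both lost it without vehicle mouse 3, 4, 5 or 6 or INT-767 mouse 2 or 4, with adjusted p of up to 0.0946 and 0.114. *Col1a1* also lost it without the 4 negative libraries (adjusted p = 0.0658), at a log2 fold change of -2.94. None of 5 endothelial, 4 cholangiocyte and 4 lymphocyte markers passed the test, and their summed levels were between 82.4 and 216, 47.0 and 86.1, and 2.27 and 6.81 CPM in vehicle and between 64.4 and 148, 30.3 and 57.3, and 1.83 and 3.60 in INT-767 mice, with *Stab2*, *Sox9* and *Nkg7* the most abundant. With the library class as a further term more markers were called: 3 of 6 hepatocyte markers higher (*Alb*, *Apoa1* and *Cps1*), and lower 4 of 6 macrophage, 3 of 6 stellate, 2 of 5 endothelial (*Pecam1* and *Stab2*), 2 of 4 cholangiocyte (*Krt19* and *Sox9*) and 1 of 4 lymphocyte markers (*Cd3e*), where 14.7% and 14.4% of all genes were called. In whole liver a lower share of a cell type and less RNA of a gene per cell cannot be told apart, and the part of these cell types in the clock gene levels was not tested.

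No time of day can be read from these values. The groups differ in treatment, and may differ in the hour of harvest or of the last dose, and those cannot be told apart here. The labels give the mice of a group as replicates and say nothing of the day or batch on which their RNA was prepared, so that the p-values measure the spread between these livers alone.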

How the data were processed

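Liver mRNA of 11 mice was measured by bulk sequencing, 7 given vehicle and 4 given INT-767, grouped by their labels. Stranded mRNA libraries were read over 75 cycles, and STAR was the aligner, with GRCm38 as the genome. Its version is 2.4.0 in the submitters' processing notes, while the methods name Ensembl release 84 and a later STAR version. The authors deposited 1 table of raw read counts per gene without normalization, whose columns all belong to these mice. The sources used here name neither the counting program nor its strand setting.

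Counts were fitted with edgeR 4.0.16 in R 4.3.3 (TMM factors, filterByExpr with default minima of 10 counts and 15 in total, robust glmQLFit and glmQLFTest with treatment as the term), and 13880 genes were tested with Benjamini-Hochberg adjustment at 0.05. Raw totals were 7381211 to 16022459 counts, CPM use TMM-scaled totals of 7102508 to 17128532, log2 CPM a prior count of 2, and a count of 0 allows up to 3 counts. Each standard error was the fold change over the square root of its F statistic. The members and the gene lists were chosen with earlier results of these data known. Named are the members, 15 other core clock genes, opposite-strand partners, the 5 genes most like and 5 most unlike *Arntl*, and of each further list up to 5 called genes by p and the most abundant. Examples that did not pass the test were added after their values were seen. Some genes of these lists are not reported here and enter no list count.

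Alternatives were RLE, upper-quartile and library-size scaling, 2 filters, limma 3.58.1 with voom, DESeq2 1.42.0, a block for the mouse's number, an offset for GC content and length per library (lowess span 0.3, GENCODE M21, 13835 genes), *Arntl* as a covariate, leaving out each mouse and a threshold of 0.01. The library class term, the fits without the negative libraries and slopes with the offset were added after the data were seen. On simulated counts of 13699 genes, 200 of them changed by 2 on the log2 scale between the groups, edgeR recovered 91% and called 8 others. The numbers of the mice did not pair them: deviations of same-numbered mice from their group means correlated at -0.69, 0.22, 0.15 and -0.48 for numbers 1 to 4. Figures were drawn with matplotlib 3.10.9 in Python 3.11.15.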

Additional observations from a re-analysis of the deposited data

Results flagged for a closer look

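Levels of the 9 members and 14 other core clock genes in both treatments gave 46 groups. Of these, 8 held a mouse that stood far from the rest by Dixon's criterion. The nominal rate of the criterion is about 1 in 20, and the share over all genes was not counted. Vehicle mouse 3 was the highest of its group for 4 genes, *Nfil3* at 45.2 CPM (the next at 13.1), *Bhlhe41* at 11.1 CPM (the next at 5.42), *Bhlhe40* at 650 CPM (the next at 140) and *Ciart* at 68.9 CPM (the next at 20.96). Its library was not in the negative class. Vehicle mouse 1, in the negative class, was the highest for *Clock* at 96.9 CPM (the next at 53.5) and for *Rora* at 181 CPM (the next at 128). INT-767 mouse 4 was the highest of its group for *Tef* at 370 CPM (the next at 295), and INT-767 mouse 1 the lowest for *Fbxl21* at 2.80 CPM (the next at 6.05). The causes were not tested.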

How the results depend on the processing

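The log2 fold changes of the 9 members moved by less than 1 SD of the mice in every alternative run. The ranges were 1.84 to 2.59 for *Arntl*, -2.68 to -1.84 for *Nr1d1*, -1.75 to -0.97 for *Dbp* and -2.23 to -1.22 for *Bhlhe41*, and *Nfil3*, *Per2* and *Per3* took both signs. With library size alone 331 genes were called higher and 1026 lower, so that 24.4% of the calls were higher against 51.9% with TMM. DESeq2 called 1443 and 1368, the GC content and length offset 1073 higher, a threshold of 0.01 158 and 87, and the library class term 2039 and 1999. With *Arntl* as a covariate 0 and 0 were called (1336 at an unadjusted p under 0.05). *Arntl* itself differed with treatment, so this fit cannot tell its level from the treatment. Standard errors grew in it, from 0.51 to 1.05 for *Nr1d1* and from 0.16 to 0.28 for *Nampt*. *Elovl3* turned to -0.077 (SE 0.65, edgeR adjusted p = 0.953). In that fit *Nampt*, *Lonrf3* and *Tsc22d3* were at 0.64, 0.47 and 0.19, and *Mt1* and *Mt2* at -1.23 and -1.76. *G6pc* and *Ppargc1a* were at 1.33 (SE 0.53) and 1.00 (SE 0.29). What these shifts mean was not tested. Without 1 mouse, between 164 and 1906 genes were called higher and between 110 and 1370 lower, with the extremes without INT-767 mouse 2 and vehicle mouse 1. Counts also moved by over 1.5 times without vehicle mice 3, 4, 5 and 6 (429, 375, 336 and 306 higher; 383, 392, 284 and 267 lower) and, for the higher genes, without INT-767 mouse 4 (461).

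Of the 14 other core clock genes, the 1 call became 2 with library size alone, upper-quartile factors, the offset and without the 4 negative libraries, 4 with DESeq2 and the class term, and 0 with *Arntl* as a covariate. It was between 1 and 3 without 1 mouse, with 3 when vehicle mouse 1 and 2 when INT-767 mouse 1 was left out. *Cry1* lost its call in 3 of 24 alternatives, the 2 block fits and *Arntl* as a covariate, with log2 fold changes of 1.76 to 2.29 there against 1.84. Of the other named genes, *Hspa8*, *Mt1*, *Mt2*, *Nr3c1* and *Col1a1* lost their calls with no filter, *Hspa8* and *Nr3c1* with upper-quartile factors and *Elovl3* and *G6pc* with limma-voom. Slopes on *Arntl* within groups gave 0 calls in each alternative that kept *Arntl* as the term. With *Dbp* as the term 2009 positive and 2106 negative slopes were called, with *Nr1d1* 3391 and 3516, and with the offset 1556 and 2043 for *Dbp* and 2512 and 2929 for *Nr1d1*. The causes were not tested.

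With the replicate block edgeR called 0 genes higher and 0 lower (1347 at an unadjusted p under 0.05), also with the GC content and length offset (0 and 0, 1681 unadjusted), and 0 core clock genes with either. The block left 3 vehicle mice without a partner, and the numbers did not pair the mice. *Arntl* rests on few reads, and *Npas2* could not be tested at this depth.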
